A study of Drosophila melanogaster with 42 samples.

Results

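The effect of neuronal dSir2 overexpression on gene expression in whole female flies at day 40 was set against its effect at day 10, gene by gene. The members are the 12 arrays, of 42 in the series, that hold dSir2 overexpressing flies and their controls at both ages, with 3 arrays in each of 4 groups. The value followed throughout is the interaction, that is the difference between overexpressing and control flies at day 40 minus the same difference at day 10, and each of these differences is given beside it. Flies labelled overexpressing carried the ELAV-GeneSwitch driver, which is active in neurons, and the dSir2EP2300 insertion in a mixed yw/w1118 background, and received RU486, which switches the driver on. Controls had the same genotype and received the diluent (EtOH). All were females on the food labelled normal, aged 40 or 10 days, and each array measured RNA pooled from many whole females, described in the methods as an independent biological replicate. No flies that received RU486 without a transgene were analysed here, so dSir2 and RU486 cannot be told apart. Beside these stand DN-Dmp53 flies, labelled p53 knockdown, with the same driver and RU486, their diluent controls, and yw/w1118 females on a restricted diet, all at both ages.

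dSir2, listed as Sirt1 in the gene table, is an NAD+-dependent protein deacetylase that acts on histones and other proteins and links chromatin and metabolism to nutrient state. In flies its level in adult neurons has been tied to life span and to the response to dietary restriction (DR), and a dominant negative form of Dmp53, the fly p53 (DN-Dmp53), has been studied beside it. Expression was read on Affymetrix Drosophila 2.0 arrays as log2 values, so that a difference of 1 is a doubling, and RNA of the whole body mixes neurons with gut, fat, muscle and ovary. In such RNA fewer cells of a type and less RNA per cell cannot be told apart.

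The 12 arrays resembled each other closely. Their medians lay between 2.80 and 2.98, and each correlated with the rest of its group at 0.995 to 0.999. On each array 38.8 to 40.3% of probesets sat at the floor, the lowest value of the matrix (2.11), where no fall can be seen. The precision of every value is limited by the 3 arrays in a group. Females were checked by the 26 markers of male accessory gland and testis that have a probeset. On 2 of the 3 arrays of dSir2 overexpressing flies at day 40, 8 and 7 of these markers lay more than 0.25 above the floor, against 2 on the third and 2 on each of the other 9 arrays. Acp98AB, an accessory gland peptide, read 2.11, 6.67 and 4.30 in dSir2 overexpressing flies and 2.11 on all 3 control arrays at day 40. The summed signal of the list was 505 to 681 in dSir2 overexpressing flies and 470 to 508 in controls at day 40, and 280 to 315 in dSir2 overexpressing flies and 235 to 286 in controls at day 10. The part of this male signal in the results was not tested, and several counts are also given with array 1 as the only array of dSir2 overexpressing flies at day 40.

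The dSir2 transcript itself was not higher on the arrays labelled sir2 overexpression, so that overexpression is not seen in this whole body RNA, and the name dSir2 overexpressing flies follows the label throughout. Its 1 probeset read 11.44, 11.38 and 11.43 in dSir2 overexpressing flies and 11.42, 11.50 and 11.21 in controls at day 40, and 11.80, 11.63 and 11.65 in dSir2 overexpressing flies and 11.99, 11.71 and 12.04 in controls at day 10. The arrays overlapped at day 40 and at day 10. The difference was 0.04 at day 40 (limma adjusted p = 1) and -0.22 at day 10 (adjusted p = 0.156), and the interaction was 0.26 with a standard error (SE) of 0.14 and an adjusted p of 0.346. The other 8 sirtuins and histone deacetylases measured also had interactions above 0, with 0 called, and the nearest to the threshold was Sirt6 at 0.67 (adjusted p = 0.0584).

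The differences between dSir2 overexpressing and control flies were smaller at day 40 than at day 10, with a median absolute difference over genes of 0.09 at day 40 and 0.21 at day 10, and most genes called at day 10 were not called at day 40. A gene was called at a limma adjusted p under 0.05 and a fold over 1.5, which is 0.58 on the log2 scale, among 10097 genes tested. At day 40, 2 genes were higher in dSir2 overexpressing flies than in controls (0.0198% of those tested) and 2 were lower (0.0198%), whereas an unadjusted p under 0.05 was reached by 610 in the higher and 624 in the lower direction. At day 10, 672 were higher (6.66%) and 678 lower (6.71%). The interaction was called in 440 genes, of which 217 were higher (2.15%), meaning that the dSir2 effect was more positive at day 40, and 223 lower (2.21%). The even split of the interaction depended on scaling, with 201 higher and 338 lower when each array was centred on its median and 155 higher and 242 lower when the arrays were quantile normalized again. With adjusted p alone and no fold threshold, 377 interactions were higher (3.73%) and 322 lower (3.19%), and at day 10 there were 1326 genes higher (13.1%) and 1754 lower (17.4%).

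**Figure D1:**
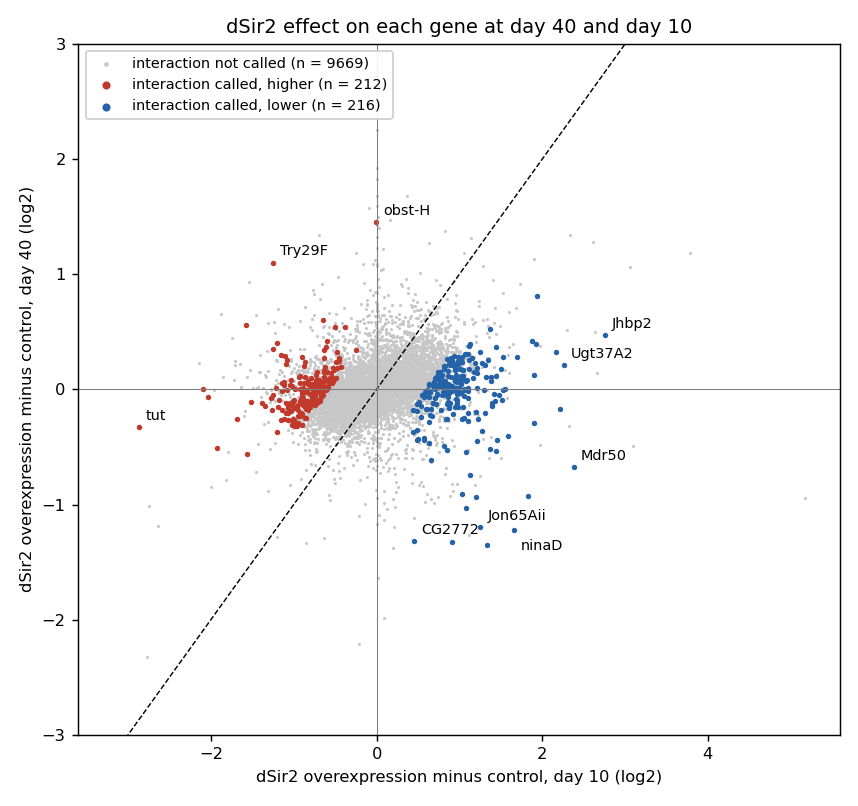
Difference between dSir2 overexpressing and control flies at day 40 (vertical axis, log2) against that at day 10 (horizontal axis, log2) for 10097 genes, 1 point a gene, with the dashed line where both are equal. Genes with a called interaction, 212 higher in red and 216 lower in blue by the probeset of highest mean, lie off the line near 0 on the vertical axis.

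Single arrays mattered to the count of interactions. It was 237 and 202 without array 2 or array 3 of the controls at day 10, 256 and 204 without array 2 or array 3 of the controls at day 40, 241 without array 1 of the dSir2 overexpressing flies at day 10, and 265 and 268 without array 1 or array 3 of those at day 40. Without array 3 of the dSir2 overexpressing flies at day 10 it was 822. With array 1 alone in the dSir2 overexpressing group at day 40 it was 230, of which 157 were among the 440 in the same direction. Of the 59 genes named below with a called interaction, 29 lost the call in that setting, namely Act79B, CG12769, CG13796, CG14453, CG14687, CG42249, CG4676, CG4830, CG5245, CG6296, CtsL3, Cyp6a14, Hr39, Ilp2, Jon65Aii, Jon74E, Mcm3, Shmt, Ugt37B1, Vm26Ac, betaTry, bol, daw, exu, lambdaTry, mag, ndl, ninaD and tut, with none of these changing sign.

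Genes called at day 10 mostly had the same sign at day 40, at a small size. Of the 654 genes called higher at day 10 by their probeset of highest mean, with a median difference of 0.80, 508 (77.7%) were above 0 at day 40, where their median was 0.16. Of the 642 called lower, with a median of -0.75, 501 (78.0%) were below 0 at day 40, where the median was -0.12. For comparison, 5836 of the 10097 genes tested had the same sign at both ages. Only 23 and 7 of the genes called at day 10 were past a fold of 1.5 in the same direction at day 40. Since they were chosen for large differences at day 10, smaller ones on other arrays are partly to be expected. Over all genes the difference at day 40 and that at day 10, which rest on separate arrays, had a Pearson r of 0.262 and a Spearman rho of 0.351, given as a description across genes, which are not independent.

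In most genes with a called interaction the controls at day 10 stood apart from the other 3 groups. Of the 428 genes called by the probeset of highest mean, 386 were also called at day 10 and not at day 40, 2 at day 40 and not at day 10, and 40 at neither age. The group whose removal left the smallest range among the other 3 means was the day 10 control in 366 genes (85.5%), the dSir2 overexpressing group at day 10 in 55, the dSir2 overexpressing group at day 40 in 4 and the day 40 control in 3. Over all genes tested it was the day 10 control in 48.2%. Each of the 4 groups enters the interaction with equal weight, but the genes were called by the interaction on these same arrays. The share of 85.5% is therefore a description. Interactions were marked as bounds only where a group had all 3 arrays at the floor, which none of the 428 genes had. Among all genes tested 83 interactions are lower bounds, 96 are upper bounds and 1128 have no bound. Groups just above the floor, as in CG13982 and obst-H below, are not counted by this mark.

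**Figure D2:**
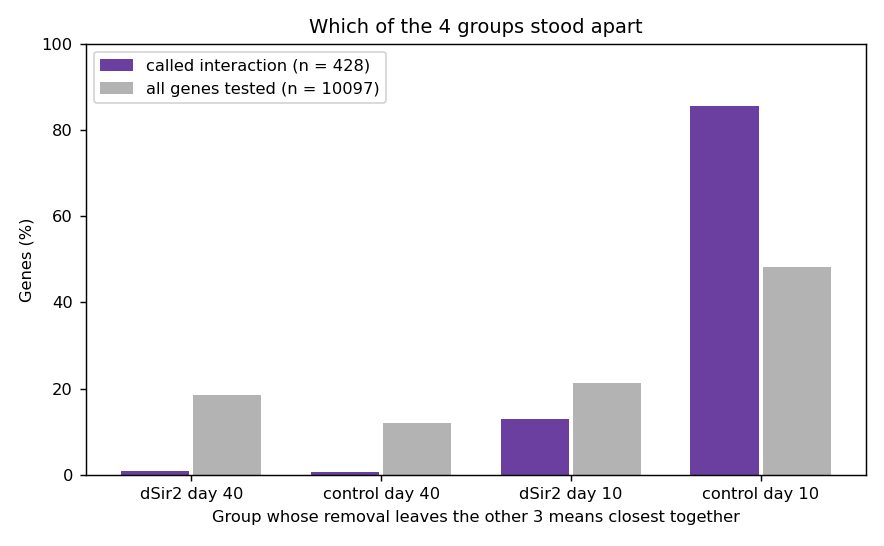
Percentage of genes (vertical axis) in which each of the 4 groups (horizontal axis) was the one whose removal left the other 3 means closest together, for 428 genes with a called interaction and for all 10097 genes tested. The day 10 control stood apart in 85.5% of called genes, against 48.2% of all genes tested.

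The change with age in each arm restates this pattern. The interaction is the change in dSir2 overexpressing flies minus that in their controls, and the genes below were called by it. A gap between the arms is therefore built in and is no separate evidence. Among the 216 genes with a lower interaction the median change between day 40 and day 10 was 0.02 in dSir2 overexpressing flies and 0.998 in their controls. Among the 212 with a higher interaction it was -0.13 in dSir2 overexpressing flies and -0.93 in their controls. The control arrays of the DN-Dmp53 line, which received the diluent as well, changed by a median of 0.19 and -0.31 in the same genes. These genes were chosen through the dSir2 controls, so the smaller change in the other line's controls is a description. Over all genes, the change with age of the dSir2 controls minus that of the DN-Dmp53 controls was higher in 502 (4.75%) and lower in 386 (3.65%) of 10561 genes.

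The 2 lowest called interactions were those of Mdr50 and ninaD. Mdr50, an ABC transporter of the multidrug resistance family, read 6.52, 5.48 and 6.24 in dSir2 overexpressing flies and 6.62, 6.92 and 6.72 in controls at day 40, and 8.96, 8.88 and 9.16 in dSir2 overexpressing flies and 6.49, 6.85 and 6.52 in controls at day 10. Only the dSir2 overexpressing flies at day 10 were high, and their arrays did not overlap those of any other group. The difference was -0.68 at day 40 and 2.38 at day 10, and the interaction was -3.06 (SE 0.34, limma adjusted p = 0.00494). ninaD, which encodes a scavenger receptor of carotenoid uptake, read 7.16, 5.16 and 6.57 in dSir2 overexpressing flies and 7.74, 7.61 and 7.20 in controls at day 40, and 8.28, 8.70 and 8.91 in dSir2 overexpressing flies and 6.65, 7.41 and 6.86 in controls at day 10. It was again highest in the dSir2 overexpressing flies at day 10, and its interaction of -2.88 had an adjusted p of 0.0422. That call was lost, at values between -3.31 and -2.31, when any 1 of 10 arrays was left out, the exceptions being arrays 1 and 2 of the dSir2 overexpressing flies at day 40. magro (mag), a gut lipase of sterol and fat digestion, had an interaction of -1.63 (adjusted p = 0.0101), with -0.55 at day 40 and 1.08 at day 10. Of the 20 genes of midgut digestion tested outside the protease lists, mag was the 1 called, and with array 1 alone in the dSir2 overexpressing group at day 40 there were 0.

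Digestive serine proteases had low interactions as well. Of 13 Jonah proteases tested, which are secreted by the midgut, 12 had an interaction below 0. The list median was -1.11, against 0.00 over all genes tested. Called lower were 3 of the 13, against 2.21% of all genes tested. Jon65Aii read 8.08, 6.997 and 7.76 in dSir2 overexpressing flies and 8.23, 9.45 and 8.73 in controls at day 40, and 10.87, 11.11 and 11.15 in dSir2 overexpressing flies and 9.94, 9.997 and 9.44 in controls at day 10. The arrays did not overlap at either age, with dSir2 overexpressing flies lower at day 40 and higher at day 10, and the interaction was -2.45 (SE 0.50, limma adjusted p = 0.0299). Jon25Bii had 10.88, 10.51 and 11.55 in dSir2 overexpressing flies and 11.61, 12.21 and 12.21 in controls at day 40, and 12.61, 13.06 and 12.83 in dSir2 overexpressing flies and 11.94, 11.98 and 11.35 in controls at day 10. Its interaction was -2.11 (adjusted p = 0.028), and that of Jon74E was -0.86 (adjusted p = 0.0219). The differences at day 40 alone, -1.19 and -1.03 in Jon65Aii and Jon25Bii, did not pass the test. The Jonah count was 0 without array 3 of either control group or array 1 of the dSir2 overexpressing flies at day 10, and 1 without array 2 of either control group, array 2 of the dSir2 overexpressing flies at day 10 or array 1 of those at day 40. Without array 1 of the day 40 controls it was 5.

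Trypsins were split. Of 10 tested, 2 had a lower interaction and 1 a higher one, against 2.21% and 2.15% of all genes tested. At day 10 alone 4 were higher and 1 lower, against 6.66% and 6.71% of all genes tested, and at day 40 alone 0 were called. The interaction was below 0 in 9 of the 10. lambdaTry at -0.98 (limma adjusted p = 0.0344) and betaTry at -0.85 (adjusted p = 0.0121) were called lower. Try29F went the other way. It read 6.48, 5.91 and 5.88 in dSir2 overexpressing flies and 4.42, 5.42 and 5.14 in controls at day 40, and 4.86, 5.60 and 5.08 in dSir2 overexpressing flies and 6.60, 6.31 and 6.38 in controls at day 10, with no overlap between dSir2 overexpressing flies and controls at either age. Its interaction of 2.35 (SE 0.41, adjusted p = 0.019) was the second largest in the positive direction among called genes, and its call was kept whichever array was left out. The lower trypsins were 5 without array 1 of the day 40 controls, 4 without array 3 of the dSir2 overexpressing flies at day 10, and 1 without any 1 of 8 others, all but arrays 1 and 3 of the dSir2 overexpressing flies at day 40. With array 1 alone in that group they were 0.

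**Figure D3:**
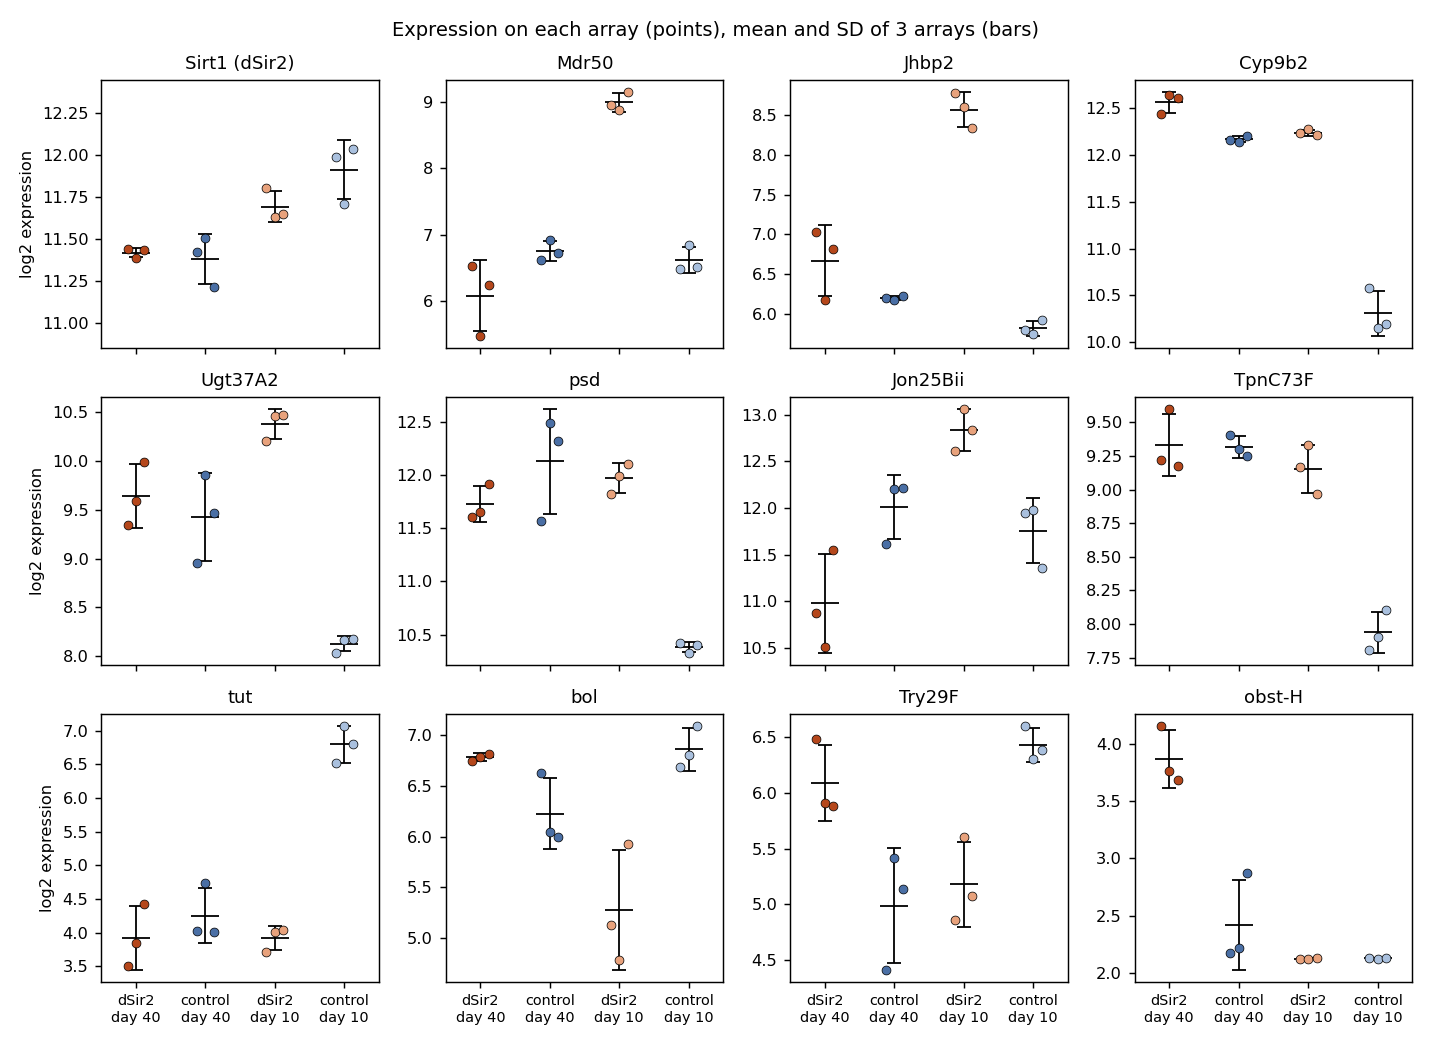
Log2 expression (vertical axes) of 12 genes on each array, in the order dSir2 overexpression and control at day 40, then dSir2 overexpression and control at day 10 (horizontal axis), with the mean and SD of 3 arrays. Cyp9b2, psd and TpnC73F were low and tut was high in the day 10 controls alone, Mdr50 was high in dSir2 overexpressing flies at day 10 alone, and obst-H in those at day 40 alone.

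By count, though not by share, cytochrome P450s were the list with the most called interactions, all lower. They oxidize hormones and foreign compounds, and UDP-glycosyltransferases and glutathione S-transferases conjugate the products. Of 76 P450s tested, 11 had a lower interaction and 0 a higher one, against 2.21% and 2.15% of all genes tested. The list median was -0.13. At day 10 alone 23 P450s were higher and 1 lower in dSir2 overexpressing flies, against 6.66% and 6.71% of all genes tested. At day 40 alone, 0 P450s were called. Cyp9b2 read 12.43, 12.64 and 12.61 in dSir2 overexpressing flies and 12.16, 12.13 and 12.20 in controls at day 40, and 12.23, 12.27 and 12.21 in dSir2 overexpressing flies and 10.58, 10.15 and 10.19 in controls at day 10. The day 10 controls were the low group, and the difference of 1.93 at day 10 compares with 0.39 at day 40 (interaction -1.54, SE 0.15, limma adjusted p = 0.00377). Cyp4d14 had the lowest called interaction of the family, -2.14 (adjusted p = 0.0265), with -0.93 at day 40 and 1.20 at day 10. Cyp6a14 at -1.53 and Cyp28a5 at -1.32 were also called. Cyp18a1, which inactivates ecdysteroid hormones, had an interaction of -0.87 (adjusted p = 0.00644). The count of lower P450s was 7 without array 2 or array 3 of the day 10 controls or array 1 of the dSir2 overexpressing flies at day 10.

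Conjugating enzymes gave a similar picture. Of 33 UDP-glycosyltransferases, 6 had a lower interaction and 0 a higher one, against 2.21% and 2.15% of all genes tested. At day 10 alone 8 were higher and 0 lower, against 6.66% and 6.71% of all genes tested. Ugt37A2 read 9.34, 9.59 and 9.99 in dSir2 overexpressing flies and 8.96, 9.86 and 9.47 in controls at day 40, and 10.21, 10.46 and 10.48 in dSir2 overexpressing flies and 8.04, 8.16 and 8.18 in controls at day 10. The arrays overlapped at day 40 and did not at day 10, when the controls were low, and the interaction was -2.05 (SE 0.33, limma adjusted p = 0.0135). In Ugt37D1 the difference was 0.00 at day 40 and 1.53 at day 10 (interaction -1.53, adjusted p = 0.00368), and in Ugt35C1 the interaction was -1.38. Ugt37B1, a weakly expressed member, was called at -2.24 with an adjusted p of 0.0486, close to the threshold. Of 34 glutathione S-transferases, GstE3 at -1.61 (adjusted p = 0.0122) and GstE9 at -0.83 (adjusted p = 0.04) were called lower and 0 higher. A weaker probeset of GstE9 went the other way, at 0.69, and was not called. The call of GstE9 was lost with 7 of the 12 arrays left out in turn.

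Eggshell genes, which ovarian follicle cells express late in egg formation, all had an interaction below 0. Of 17 chorion and vitelline membrane genes tested, 6 were called lower, against 2.21% of all genes tested. The list median was -0.87, and the values ran between -1.99 and -0.34. The difference was below 0 in all 17 at day 40, with a median of -0.37 and 0 called. It was above 0 in 16 at day 10, with a median of 0.36 and 6 called higher, against 6.66% of all genes tested. palisade (psd), needed for the vitelline membrane, read 11.60, 11.65 and 11.92 in dSir2 overexpressing flies and 11.57, 12.49 and 12.32 in controls at day 40, and 11.82, 11.99 and 12.11 in dSir2 overexpressing flies and 10.42, 10.33 and 10.40 in controls at day 10. Its day 10 controls were the low group, and the interaction was -1.99 (SE 0.30, limma adjusted p = 0.012). The vitelline membrane genes Vm26Ac at -1.98 and Vm32E at -1.89 and nudel (ndl), the protease that sets off eggshell crosslinking, at -1.90 were called as well, with adjusted p of 0.0377, 0.0159 and 0.0309. Values nearer to 0 were found among the Cp chorion protein genes, such as -0.34 for Cp36 (adjusted p = 0.529) and -0.44 for Cp38 (adjusted p = 0.457). With array 1 alone in the dSir2 overexpressing group at day 40, 2 eggshell genes were called lower. The count was also 2 without array 2 or 3 of either control group, array 2 of the dSir2 overexpressing flies at day 10, or array 1 or 2 of those at day 40, and 9 without array 1 of the day 40 controls. psd and Vm32E kept their calls whichever array was left out.

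In genes of the female germline the share called was close to that over all genes. Of 34 oogenesis and maternal germline genes tested, 1 had a higher interaction and 0 a lower one, with a median of 0.15. The count was 7 without array 3 of the dSir2 overexpressing flies at day 10, 3 without array 1 of the day 40 controls, 2 without array 1 of the day 10 controls or array 2 of the dSir2 overexpressing flies at day 40, and 0 without array 2 or 3 of the day 10 controls, array 3 of the day 40 controls, or array 1 or 3 of the dSir2 overexpressing flies at day 40. The 1 was exuperantia (exu), which localizes bicoid mRNA, with 13.11, 13.01 and 13.12 in dSir2 overexpressing flies and 13.20, 13.24 and 13.08 in controls at day 40, and 13.19, 13.38 and 13.57 in dSir2 overexpressing flies and 14.19, 14.14 and 14.07 in controls at day 10. Its day 10 controls were the high group and the interaction was 0.66 (limma adjusted p = 0.0233), a call lost with 6 of the 12 arrays left out in turn, at values between 0.57 and 0.76. Of 16 genes of DNA replication and the cell cycle, 14 had an interaction of 0 or above, and the replicative helicase subunit Mcm3 was called at 0.61 (adjusted p = 0.0185), and not without array 1 of the day 10 controls, array 3 of the day 40 controls or array 3 of the dSir2 overexpressing flies at day 40. The 4 genes of yolk proteins and their receptor had interactions between -0.36 and -0.02, with 0 called.

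Most muscle genes were called higher in dSir2 overexpressing flies at day 10, and some had a lower interaction. Of 18 muscle markers, 4 had a lower interaction and 0 a higher one, against 2.21% and 2.15% of all genes tested. The median of the markers was -0.47. All 18 were above 0 at day 10, with a median of 0.75 and 15 called, against 6.66% of all genes tested called higher at that age. At day 40, 17 were above 0, with a median of 0.29 and 0 called. The summed signal of the list was 31197 to 36975 in dSir2 overexpressing flies and 27362 to 29832 in controls at day 40, and 34803 to 38386 in dSir2 overexpressing flies and 19684 to 21153 in controls at day 10. These sums did not overlap between dSir2 overexpressing flies and controls at either age, and the same held for the photoreceptor markers. The sums of neuron, fat body and spermatheca markers overlapped at day 40 and not at day 10. Those of the male markers overlapped at both ages, so separate sums at day 10 were not particular to muscle. Such a sum is carried mostly by the most strongly expressed members. Among the 10097 genes tested, single genes did not overlap in 1490 at day 40 and 4420 at day 10. TpnC73F, a troponin C, read 9.22, 9.60 and 9.18 in dSir2 overexpressing flies and 9.41, 9.30 and 9.25 in controls at day 40, and 9.17, 9.33 and 8.97 in dSir2 overexpressing flies and 7.81, 7.90 and 8.11 in controls at day 10. The interaction was -1.20 in TpnC73F (SE 0.19, limma adjusted p = 0.0134), -1.01 in Act88F, the flight muscle actin (adjusted p = 0.0472), -0.96 in Act79B and -0.88 in the muscle LIM protein Mlp60A (adjusted p = 0.00548), though 2 weaker probesets of Mlp60A gave values above 0 that were not called. The muscle count was 2 without array 2 or 3 of either control group, array 1 of the dSir2 overexpressing flies at day 10, or array 1 or 3 of those at day 40.

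**Figure D4:**
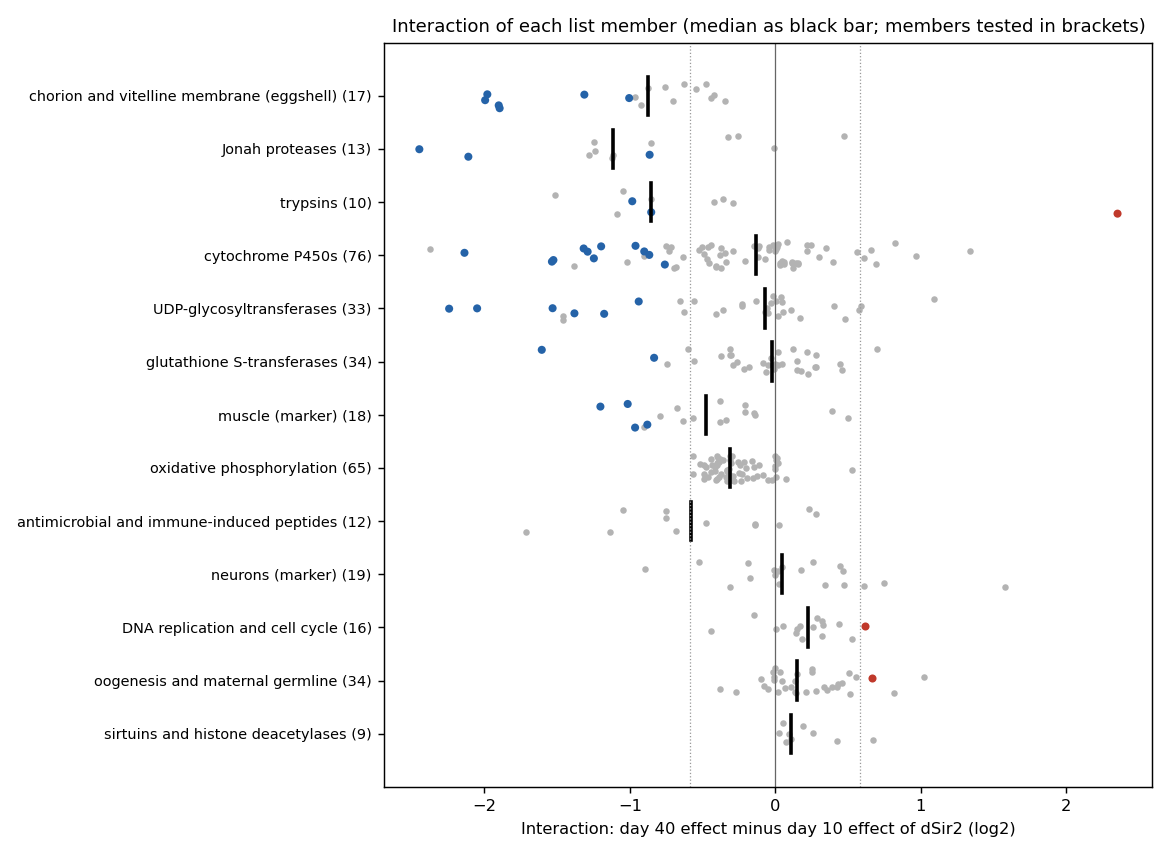
Interaction (horizontal axis, log2) of each member of 13 gene lists (vertical axis), 1 point a gene, with called members in red (higher) or blue (lower), the list median as a black bar and dotted lines at a fold of 1.5. Eggshell genes, Jonah proteases, trypsins and muscle genes lie mostly below 0, with list medians of -0.87, -1.11, -0.85 and -0.47.

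Genes of hormone carriage, lipid handling and stress were represented by single calls. Jhbp2, of the takeout family of secreted lipid carriers, read 7.02, 6.17 and 6.81 in dSir2 overexpressing flies and 6.19, 6.17 and 6.22 in controls at day 40, and 8.78, 8.60 and 8.33 in dSir2 overexpressing flies and 5.79, 5.74 and 5.92 in controls at day 10. The dSir2 overexpressing flies at day 10 were the high group, with a difference of 2.76 at day 10 and 0.47 at day 40 (interaction -2.28, SE 0.28, limma adjusted p = 0.0058). It was the 1 called of 19 takeout family genes tested, and takeout itself was not tested, having no probeset that names it alone. Ilp2, an insulin-like peptide of the brain, was weakly expressed and had an interaction of -0.77 (adjusted p = 0.0151), with 0.02 at day 40 and 0.79 at day 10, as 1 of 15 genes of insulin signalling, of which 0 were called with array 1 alone in the dSir2 overexpressing group at day 40. The lipid transfer apolipoprotein Apoltp at -0.80 and the phosphatidate phosphatase Lpin at -0.70 had adjusted p of 0.0039 and 0.00623. The small heat shock protein l(2)efl was called at -1.30 (adjusted p = 0.00796), the mitochondrial peroxiredoxin Prx3 at -0.61 (adjusted p = 0.0157), the serine hydroxymethyltransferase Shmt at -0.63 (adjusted p = 0.0399) and the cuticle protein Cpr49Ab at -1.54 (adjusted p = 0.0118). In 5 of these 7 genes the day 10 control was the group apart, and in Prx3 and Cpr49Ab it was the dSir2 overexpressing group at day 10.

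The remaining large lower interactions were in a cathepsin and in genes to which no role is given here. CG11162 read 2.41, 2.42 and 2.59 in dSir2 overexpressing flies and 2.92, 3.53 and 3.75 in controls at day 40, and 4.70, 4.46 and 4.19 in dSir2 overexpressing flies and 2.52, 2.61 and 2.74 in controls at day 10. The dSir2 overexpressing flies were lower at day 40 and higher at day 10, without overlap at either age, and the interaction was -2.76 (SE 0.29, limma adjusted p = 0.00432). CG6296 had 5.64, 4.74 and 4.66 in dSir2 overexpressing flies and 5.70, 6.87 and 6.52 in controls at day 40, and 7.13, 8.08 and 7.61 in dSir2 overexpressing flies and 6.19, 6.73 and 5.88 in controls at day 10, with an interaction of -2.69 (adjusted p = 0.0349). CG4830 read 2.79, 2.63 and 2.79 in dSir2 overexpressing flies and 2.63, 3.26 and 2.83 in controls at day 40, and 7.43, 6.50 and 6.19 in dSir2 overexpressing flies and 5.24, 4.21 and 4.02 in controls at day 10. Both arms were lower at day 40 than at day 10 on every array, the arrays of the arms overlapped at day 40 and not at day 10, and its interaction was -2.39 (adjusted p = 0.0422). The cathepsin L-like protease CtsL3 had an interaction of -2.20 (adjusted p = 0.0222), with -0.29 at day 40 and 1.91 at day 10.

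Among the highest called interactions were those of 2 genes of RNA-binding proteins of the germline. tumorous testis (tut), an RNA-binding protein of germ cell differentiation, read 3.50, 3.84 and 4.43 in dSir2 overexpressing flies and 4.02, 4.73 and 4.01 in controls at day 40, and 3.72, 4.01 and 4.04 in dSir2 overexpressing flies and 6.52, 7.07 and 6.80 in controls at day 10. The day 10 controls lay more than 1.5 above every other array, and the interaction was 2.55 (SE 0.40, limma adjusted p = 0.0123), with -0.33 at day 40 and -2.87 at day 10. boule (bol), an RNA-binding protein required for meiosis in males, read 6.74, 6.79 and 6.82 in dSir2 overexpressing flies and 6.63, 6.05 and 5.997 in controls at day 40, and 5.12, 4.78 and 5.93 in dSir2 overexpressing flies and 6.68, 6.81 and 7.09 in controls at day 10. Here the dSir2 overexpressing flies at day 10 were the low group (interaction 2.14, adjusted p = 0.0222). Of the 26 markers of male accessory gland and testis, 6 and 21 were at the floor on all 3 arrays of dSir2 overexpressing flies and of controls at day 40, and 21 and 20 in dSir2 overexpressing flies and controls at day 10. With array 1 alone in the dSir2 overexpressing group at day 40, the interactions of tut and bol were 2.12 and 2.101 and were not called. The call of tut was kept whichever array was left out, and that of bol was lost with 7 of the 12 left out in turn, at values between 1.89 and 2.47.

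Other genes with high interactions were weakly expressed or have no role given here. CG13982 read 2.15, 2.15 and 2.16 in dSir2 overexpressing flies and 2.25, 2.18 and 2.23 in controls at day 40, and 2.15, 2.16 and 2.21 in dSir2 overexpressing flies and 4.70, 4.15 and 3.78 in controls at day 10, so that only the day 10 controls were clear of the floor. CG14453 read 3.17, 3.14 and 2.14 in dSir2 overexpressing flies and 4.92, 4.82 and 4.98 in controls at day 10, and lay at or near the floor on all day 40 arrays (interaction 2.09, limma adjusted p = 0.0134). Since a fall to the floor is cut short, the interactions of 1.97 in CG13982 and 2.09 in CG14453 depend on where the floor lies. The chitinase Cht6 at 1.60 was called from 1 of its 2 probesets, and CG13796 at 1.60, CG12769 at 1.45, CG30096 at 1.43, CG5245 at 1.42 and CG4676 at 1.41 completed the largest 12 called with obst-H. The nuclear receptor Hr39 was called at 0.68 with an adjusted p of 0.0495, close to the threshold. Its weaker probesets gave 1.15, 1.14 and 0.005 and were not called.

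At day 40 itself 4 genes differed between dSir2 overexpressing flies and controls. obst-H, a chitin-binding protein of the obstructor family, read 4.15, 3.76 and 3.69 in dSir2 overexpressing flies and 2.17, 2.22 and 2.87 in controls at day 40, and between 2.12 and 2.13 on all 6 arrays at day 10. The dSir2 overexpressing flies at day 40 were the high group on all 3 arrays, with a difference of 1.45 at day 40 (limma adjusted p = 0.0404) and an interaction of 1.45 (adjusted p = 0.0196). All day 10 arrays of obst-H lay near the floor, as did arrays 1 and 2 of the day 40 controls. A decrease in dSir2 overexpressing flies at day 10 would thus be hidden, and the interaction rests on the day 40 difference. CG2772 was low in the same group alone, at 2.41, 2.11 and 2.23 in dSir2 overexpressing flies and 3.73, 3.80 and 3.18 in controls at day 40, and 4.07, 4.13 and 4.18 in dSir2 overexpressing flies and 3.52, 3.74 and 3.76 in controls at day 10. Its difference at day 40 was -1.32 (adjusted p = 0.0299), with 1 array at the floor, and its interaction -1.77 (adjusted p = 0.00626). These were the 2 of the 4 genes with a called interaction. The heat shock cognate Hsc70-1 was higher in dSir2 overexpressing flies at both ages, by 0.69 at day 40 (adjusted p = 0.0299) and 0.54 at day 10 (adjusted p = 0.00171, under the fold threshold), and CG13032 was lower at both, with differences of -0.83 at day 40 (adjusted p = 0.0299) and -1.05 at day 10. Their interactions, 0.16 and 0.22, were not called. The 4 calls rest on the spread shared by all 12 arrays, and on the 6 arrays of day 40 alone 0 genes were called. The count was 0 without array 1 or 2 of the day 10 controls, array 2 of the day 40 controls or array 1 of the dSir2 overexpressing flies at day 10, and 1 without array 3 of the day 10 controls or array 2 of the dSir2 overexpressing flies at day 10. It was 16 without array 1 of the day 40 controls and 10, 14 and 7 without array 1, 2 or 3 of the dSir2 overexpressing flies at day 40. With array 1 alone as the dSir2 overexpressing group at day 40 it was 57.

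Some of the largest differences at day 10 gave no called interaction, with wide scatter among arrays. Osi6, of the insect Osiris family, read 11.50, 4.82 and 10.44 in dSir2 overexpressing flies and 10.23, 9.66 and 9.70 in controls at day 40, and 11.58, 11.37 and 10.71 in dSir2 overexpressing flies and 6.56, 7.66 and 3.93 in controls at day 10. Array 2 of the dSir2 overexpressing flies at day 40 lay far below the other 2 arrays, and the interaction of -6.12 had an SE of 2.29 (limma adjusted p = 0.164). Osi14 and Osi9 had interactions of -2.52 (adjusted p = 0.178) and -1.998 (adjusted p = 0.295), with the same array lowest in its group, as it was in CG9083 (-2.60, adjusted p = 0.249). Of 13 Osiris genes tested, 6 were called higher at day 10, against 6.66% of all genes tested, 0 at day 40 and 0 in the interaction. The larval serum protein Lsp2 was lower in dSir2 overexpressing flies at day 10, with a difference of -2.74 and an interaction of 1.73 (adjusted p = 0.181), the heart transcription factor Hand had 1.45 (adjusted p = 0.35), and the C-type lectin gene lectin-24A 0.44 (adjusted p = 0.881).

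In several groups of genes no interaction was called, where over all genes tested 2.15% were called higher and 2.21% lower. Of 65 genes of oxidative phosphorylation, 59 had an interaction below 0, with a median of -0.31, and 0 were called. Without array 1 of the day 10 controls 3 were called lower, without array 1 of the day 40 controls 2, and without array 3 of the dSir2 overexpressing flies at day 10, 1. With adjusted p alone, 9 of the 65 had a lower interaction and 0 a higher one, and 45 were higher at day 10, such as UQCR-Q with an interaction of -0.24 (limma adjusted p = 0.00452). Over all genes tested the shares by adjusted p alone were 3.19% lower and 3.73% higher in the interaction, and 13.1% higher at day 10. Of 37 cytosolic ribosomal protein genes, 8 had a lower interaction by adjusted p alone and 0 past the fold, led by RpS30 at -0.45 (adjusted p = 0.00307). Among 69 mitochondrial ribosomal proteins mRpS9 (-0.52, adjusted p = 0.0372) and among 29 proteasome genes Prosbeta2 (-0.29, adjusted p = 0.0378) passed by p alone, and 0 of either list passed the fold as well, although without array 3 of the dSir2 overexpressing flies at day 10 there were 2 mitochondrial ribosomal proteins called lower and 1 cytosolic one higher. Of 20 neuropeptide genes Nplp2 (-0.22, adjusted p = 0.0458) did so too, and 1 of the list was called lower without array 1 of the day 40 controls or array 3 of the dSir2 overexpressing flies at day 10, and 1 higher with array 1 alone in the dSir2 overexpressing group at day 40.

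Calls of immune genes depended on the arrays. Of 12 antimicrobial and immune-induced peptides tested, 0 were called in the interaction, whose median was -0.58, and the one with the smallest p was Drsl5 at -0.75 (limma adjusted p = 0.0842). The count was 4, all lower, without array 2 of the dSir2 overexpressing flies at day 40, 5 with array weights, and 2 with array 1 alone in that group, where Drsl5 was called at -0.86 (adjusted p = 0.025). Their median change with age was 1.82 in dSir2 overexpressing flies and 3.01 in controls. PGRP-SC2, of the peptidoglycan recognition proteins, had an interaction of -1.20 (adjusted p = 0.287), and Stat92E, of the JAK/STAT pathway, 0.25 (adjusted p = 0.28).

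Markers of neurons, the cells in which the driver is active, were not among the calls. Over all genes tested 2.15% were called higher and 2.21% lower, so 0 calls in lists as short as those below are close to that share. Of 19 neuronal markers tested, 0 were called in the interaction, with a median of 0.05, and the nearest was fne at 1.58 (limma adjusted p = 0.0945). Of the defining neuronal markers elav read 4.79, 4.58 and 4.91 in dSir2 overexpressing flies and 4.73, 4.98 and 4.85 in controls at day 40, and brp was at the floor on all 12 arrays. Of 12 photoreceptor markers 0 were called (chp -1.09, adjusted p = 0.0631), and of 12 clock genes 0, where per was the nearest at -1.60 (adjusted p = 0.078). All 7 spermatheca markers had interactions below 0, with a median of -0.77 and 0 called, led by CG17239 at -1.12 (adjusted p = 0.0687). Of 12 genes of p53 targets and apoptosis 0 were called, with Irbp at 0.45 (adjusted p = 0.0524), and of 12 fat body markers 1, Apoltp. Male accessory gland and testis markers had 0 of 22 called, with Acp26Ab at 0.70 (adjusted p = 0.287), high on arrays 2 and 3 of dSir2 overexpressing flies at day 40 only.

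Of 22 genes the study singles out for the long-lived lines, 18 could be tested. The study's central gene takeout, and CG17325, IM3 and Myo61F, had no probeset naming them alone. Among the 18 tested, 4 had a called interaction, all lower, and 11 were called higher at day 10. Over all genes tested these shares were 2.21% and 6.66%. The count was 1 without array 2 or 3 of the day 10 controls, array 2 of the day 40 controls, or array 1 of the dSir2 overexpressing flies at either age, 2 without array 3 of the day 40 controls, array 2 of the dSir2 overexpressing flies at day 10 or array 2 or 3 of those at day 40, and 1 with array 1 alone in the dSir2 overexpressing group at day 40. Apart from dSir2, p53, HDAC1, Indy, chico and mth, the genes tested were picked from these same arrays by their difference at the younger age. That difference enters the interaction with a minus sign, so choosing genes that rise at day 10 also draws their interactions downward. Neither their direction at day 10 nor their share of lower interactions is therefore independent evidence. dawdle (daw), an activin-like ligand, read 8.66, 8.69 and 8.68 in dSir2 overexpressing flies and 8.24, 8.49 and 8.17 in controls at day 40, and 9.35, 9.07 and 9.41 in dSir2 overexpressing flies and 7.96, 8.29 and 8.23 in controls at day 10. The arrays of dSir2 overexpressing flies lay above those of controls at both ages, with differences of 0.38 at day 40 and 1.12 at day 10, and the interaction was -0.74 (limma adjusted p = 0.0437), a call lost on leaving out any array but array 2 of the dSir2 overexpressing flies at day 10 (values between -0.84 and -0.64). The inositol polyphosphate phosphatase Mipp1 at -0.75 (adjusted p = 0.00796), CG42249 at -0.76 (adjusted p = 0.0312) and CG14687 at -0.80 (adjusted p = 0.0402) were the other three, of which Mipp1 kept its call whichever array was left out, CG42249 lost it with 8 arrays and CG14687 with 9. The neuropeptide precursor Nplp3 had -1.29 and missed the threshold (adjusted p = 0.055), as did CG5612 at -0.67, CG13928 at -0.69, Syngr at -0.73, CG3091 at -0.40, CG10553 at -0.32 and CG6870 at -0.22. The single gene longevity loci gave 0.02 for HDAC1 (Rpd3), 0.28 for Indy, 0.41 for chico and 0.42 for mth, with 0 called, and p53 gave 0.03.

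The dSir2 interaction was compared with that of DN-Dmp53, whose flies also received RU486 and have control arrays of their own. Tested directly on 24 arrays, the dSir2 interaction was higher than the DN-Dmp53 interaction in 122 genes (1.16% of 10561 tested) and lower in 268 (2.54%). With arrays centred on their medians these were 192 higher and 235 lower. In the eggshell list the interactions lay on opposite sides of 0, with a median of -0.87 for dSir2 and 1.18 for DN-Dmp53 and a called difference in 10 of 17 genes, all lower. Vm32E had an interaction of -1.89 for dSir2 and 1.84 for DN-Dmp53 (difference -3.73, limma adjusted p = 0.01). In the same list the controls differed too, since the change with age was a median of 0.82 in the dSir2 controls and -0.65 in the DN-Dmp53 controls, with 14 of 17 genes called higher in the dSir2 controls than in the DN-Dmp53 controls.

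Other lists differed between dSir2 and DN-Dmp53 in part of their genes. Of 13 Jonah proteases 5 were called lower for dSir2 than for DN-Dmp53, with list medians of -1.11 for dSir2 and 1.16 for DN-Dmp53, and Jon25Bii had -2.11 for dSir2 and 3.07 for DN-Dmp53 (limma adjusted p of the difference 0.0438). Of 76 P450s 7 were lower and 1 higher, of 33 UDP-glycosyltransferases 7 lower and 0 higher, and of 18 muscle markers 3 lower and 0 higher, led by Mlp60A with -0.88 for dSir2 and 0.66 for DN-Dmp53 (adjusted p of the difference 0.000124). Of 82 cuticle proteins 18 and of 13 Osiris genes 7 were lower and 0 higher, although 1 and 0 of them had a called dSir2 interaction of their own. The controls differed in these lists too. Their median change with age was 0.16 (dSir2) and -1.43 (DN-Dmp53) in Jonah proteases, and 0.04 and -1.77 in Osiris genes. It was called higher in the dSir2 controls in 4 Jonah, 14 P450, 8 UDP-glycosyltransferase, 6 muscle, 13 cuticle and 6 Osiris genes. It was called lower in 2 P450s and 2 UDP-glycosyltransferases. For Cyp28a5 (-1.32 for dSir2, -1.11 for DN-Dmp53), Apoltp (-0.80 for dSir2, -0.56 for DN-Dmp53) and Ilp2 (-0.77 for dSir2, -0.55 for DN-Dmp53) the difference was not called (adjusted p = 0.869, 0.617 and 0.742).

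**Figure D5:**
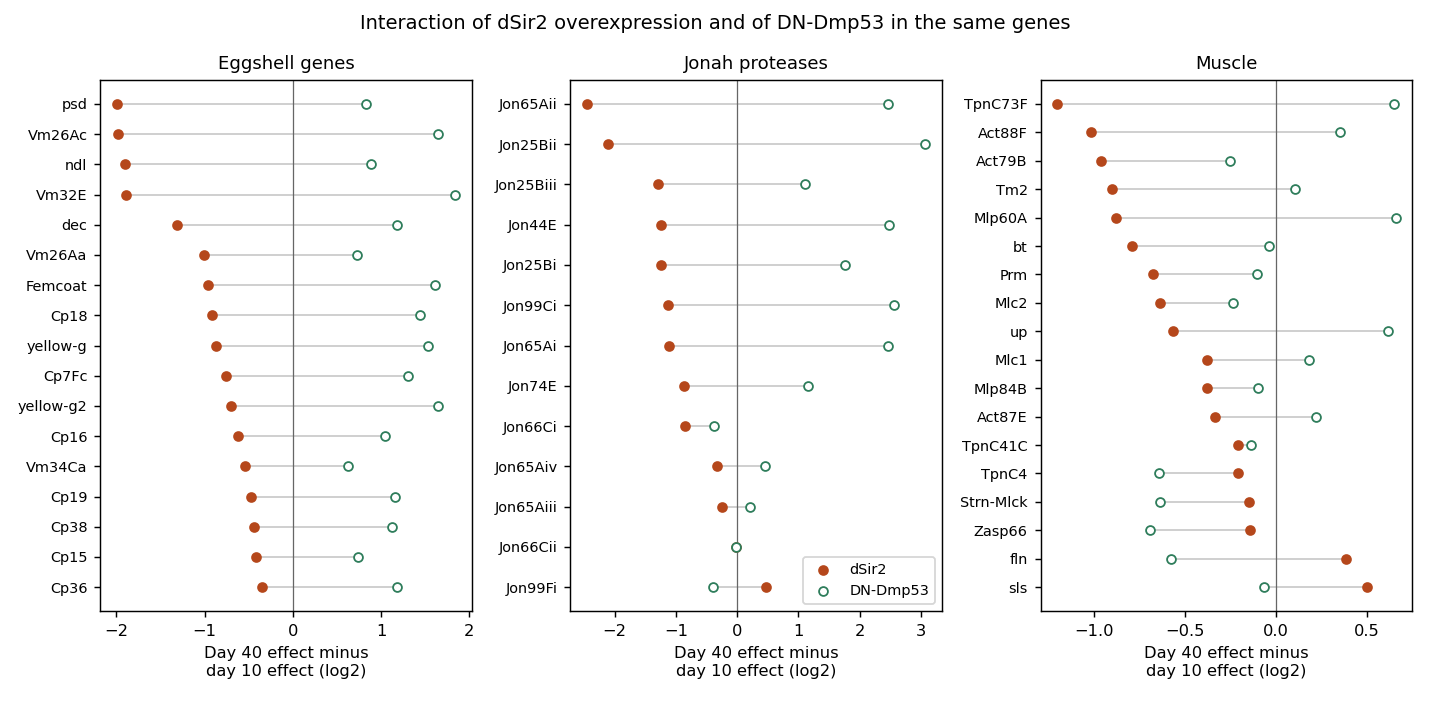
Interaction (horizontal axes, log2) of dSir2 overexpression (filled) and of DN-Dmp53 (open) for the genes (vertical axes) of the eggshell, the Jonah proteases and muscle. All 17 eggshell genes lie below 0 for dSir2 and above 0 for DN-Dmp53, with list medians of -0.87 and 1.18.

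The DR flies of the yw/w1118 background were set here against the same control arrays as the dSir2 overexpressing flies, so both interactions share whatever those controls carry. In the 216 genes with a lower dSir2 interaction the median was -0.92 for dSir2 and -0.69 for DR, and in the 212 with a higher one it was 0.76 for dSir2 and 0.51 for DR. The median of the eggshell list was -0.87 for dSir2 and -0.71 for DR, and that of muscle -0.47 for dSir2 and -0.78 for DR. Tested so that the shared controls cancel, the dSir2 interaction was higher than the DR interaction in 214 genes (2.07% of 10331 tested) and lower in 100 (0.968%). With arrays centred on their medians these were 210 higher and 252 lower. Of 19 takeout family genes, 4 were called higher for dSir2 than for DR and 1 lower, and 0 of 17 eggshell genes were called.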

How the data were processed

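RNA of whole females was hybridized to 42 one-colour Affymetrix Drosophila 2.0 arrays, 3 in each of 14 groups, and grouped by the labels. The deposited values are log2 expression values that the authors made with GCRMA, which includes quantile normalization across arrays; the sources used here do not give its version. No counts underlie them, and quantile normalization can hide a shift shared by most genes. Of 18952 probesets, 183 were controls, and of the rest 13647 named 1 gene, 402 several and 4720 none in the platform annotation. Of the 13647, 13544 were matched to current symbols, giving 11982 genes, and no sequence is printed.

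Probesets at or under the 25th percentile in all 4 group means were left out as absent, which left 13822. That percentile was the floor itself in all 4 groups, so only probesets at the floor throughout were dropped. By their probeset of highest mean, 1821 of the 10097 genes tested lay within 0.25 of the floor in all 4 groups. Such a probeset cannot pass the fold threshold, yet these genes count in the shares and medians over all genes tested. limma 3.58.1 in R 4.3.3 (lmFit and eBayes) was fitted to the 12 arrays with 1 mean for each of the 4 groups, and p-values were adjusted by Benjamini and Hochberg over all 13822. A gene was called where a probeset naming it alone passed both limits, adjusted p under 0.05 and fold above 1.5, and its values are those of its probeset with the highest mean over 42 arrays. The comparisons with DN-Dmp53 and DR were fitted with their own groups added. The script was tested on simulated data, and tables were made with Python 3.11.15 and pandas 2.3.3.

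The genes named are dSir2 and those the study names, the 12 largest called interactions in each direction, the 5 largest called differences in each direction at each age, and up to 4 called members of each of 37 gene lists, or the member with the smallest p where none was called. Acp98AB, elav, brp and the chorion genes Cp36 and Cp38 were added as examples. The comparison, the gene lists and these choices were made with earlier results of these data known. The alternatives were the absent filter, fits of other array sets, trend, array weights, centring, quantile normalization, probesets clear of the floor, the methods' t-test, a replicate block and leaving out each array. The change of the controls with age between lines, and array 1 alone for dSir2 overexpressing flies at day 40, were chosen after seeing the data. Arrays with the same replicate number did not deviate together.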

Additional observations from a re-analysis of the deposited data

Results flagged for a closer look

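The genes below are those whose dSir2 effect differed between day 40 and day 10 by the interaction test, among the genes named by rule. Values are interactions on the log2 scale, the difference between dSir2 overexpressing and control flies at day 40 minus that at day 10, and each passed limma's adjusted p and the fold threshold.

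Lower values were found in transport and digestion for Mdr50 (-3.06), ninaD (-2.88), Jon65Aii (-2.45), Jon25Bii (-2.11), mag (-1.63), lambdaTry (-0.98), Jon74E (-0.86) and betaTry (-0.85). Among detoxifying enzymes they were found for Ugt37B1 (-2.24), Cyp4d14 (-2.14), Ugt37A2 (-2.05), GstE3 (-1.61), Cyp9b2 (-1.54), Ugt37D1 (-1.53), Cyp6a14 (-1.53), Ugt35C1 (-1.38), Cyp28a5 (-1.32), Cyp18a1 (-0.87) and GstE9 (-0.83). Eggshell genes in this set were psd (-1.99), Vm26Ac (-1.98), ndl (-1.90) and Vm32E (-1.89), and muscle genes were TpnC73F (-1.20), Act88F (-1.01), Act79B (-0.96) and Mlp60A (-0.88).

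Lower values were also found for the lipid, hormone, stress and metabolic genes Jhbp2 (-2.28), l(2)efl (-1.30), Apoltp (-0.80), Ilp2 (-0.77), Lpin (-0.70), Shmt (-0.63) and Prx3 (-0.61), for the protease CtsL3 (-2.20) and the cuticle protein Cpr49Ab (-1.54), and for daw (-0.74), Mipp1 (-0.75), CG14687 (-0.80) and CG42249 (-0.76), which the study names. CG11162 (-2.76), CG6296 (-2.69), CG4830 (-2.39) and CG2772 (-1.77) were lower as well.

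Higher values were found for tut (2.55), Try29F (2.35), bol (2.14), CG14453 (2.09), CG13982 (1.97), CG13796 (1.60), Cht6 (1.60), obst-H (1.45), CG12769 (1.45), CG30096 (1.43), CG5245 (1.42), CG4676 (1.41), Hr39 (0.68), exu (0.66) and Mcm3 (0.61). What lies behind these differences was not tested.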

How the results depend on the processing

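The directions of the interactions held more widely than their calls. Against 440 genes, the interaction was called in 1339 with array weights, 699 without the fold threshold, 230 with array 1 alone for dSir2 overexpressing flies at day 40, and 104 with a replicate block, of which 84 were among the 440. Leaving out 1 array gave 202 to 822. Against 4 genes at day 40, there were 0 without the absent filter, 2 with all 14 groups in the fit, 0 with the replicate block, 0 on the 6 arrays of that age, 8 without the fold threshold, 57 with array 1 alone, 20 by the methods' t-test and 0 after its Benjamini-Hochberg adjustment, and 0 to 16 with 1 array left out. Against 1348 genes at day 10, there were 3072 without the fold threshold and 1072 to 1575 with 1 array left out. The dSir2 interaction differed from that of DR in 490 genes with all 14 groups in the fit, against 314. Arrays with the same replicate number correlated in their deviations at -0.29 to 0.21, so the numbers were not taken to pair them, and the block is given only here.

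The day 40 difference of dSir2 itself was -0.047 with arrays centred and ran between -0.044 and 0.10 with 1 array left out. Signs turned in small interactions that were not called. CG13032 was -0.015 with arrays quantile normalized again, CG6870 was 0.18 with array 1 alone, HDAC1 was -0.045 centred, -0.016 quantile normalized and -0.063 to 0.12 with 1 array left out, and lectin-24A was -0.14 to 1.37 with 1 array left out. p53 was -0.00464 with array weights, -0.042 centred, -0.045 quantile normalized and -0.043 to 0.062 with 1 array left out. Of the 59 named genes called, 30 kept the call whichever array was left out, Mdr50, Jhbp2, Cyp9b2, psd and tut among them, 9 lost it with 1 to 6 of the arrays and 20 with 7 or more. With 1 array left out, the lower calls ran from 2 to 9 for the eggshell, 0 to 5 for Jonah proteases, 7 to 14 for P450s, 4 to 6 for UDP-glycosyltransferases and 2 to 5 for muscle, and with the block they were 0, 0, 6, 3 and 1. The causes were not tested. The number of arrays, 3 in a group, and the floor, where 38.8 to 40.3% of probesets lay, limit what could be seen.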
